A study of Mus musculus with 42 samples.

Results

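Of the 49585 genes in a table of RNA-seq read counts, 9 were followed through 42 libraries of mouse liver, intestine, pancreas and thymus. They are the clock output and stabilising loop genes Nr1d1, Nr1d2, Rora, Dbp, Tef, Hlf, Nfil3, Ciart and Bhlhe41, chosen by name from what is known of the clock, with earlier results of these libraries in view, so their tests below are no independent evidence for the choice. All mice were 4 weeks old, on a background of 50% BALB/C and 50% C57BL6, and carried germline p53 alterations: p53-null (called Null here), p53 +/- (Het), p53 AD/- (AD) and p53 RP/- (RP). AD is known from the study as an allele whose protein forms dimers, and RP as one whose protein stays a monomer. Het, AD and RP mice each have 1 null allele beside the named one, so every group lacks at least 1 working copy and no group is wild type. Total RNA came from unirradiated liver, intestine and pancreas (3 AD and 3 Null mice each), unirradiated thymus (3 AD, 3 Het and 2 Null mice) and thymus taken 4 h after irradiation (Null, Het, AD and RP, each with 4 mice). The unirradiated organs came from the same 3 AD mice (AD-700, AD-701 and AD-702) and the same 3 Null mice (Null-859, Null-923 and Null-1087, the last without a thymus library). Sex, radiation dose and the hour of harvest are not in the labels used here, so differences between genotypes and differences in the hour of harvest cannot be told apart in any comparison below.

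The mammalian clock is a feedback loop in which the CLOCK and BMAL1 (Arntl) proteins switch on genes through the E-box, and PER and CRY proteins switch that activity off again. In the stabilising loop the nuclear receptors REV-ERB alpha (Nr1d1) and REV-ERB beta (Nr1d2) repress Arntl, Npas2, Nfil3 and other genes through an element called RORE, which ROR alpha (Rora) activates. DBP, TEF and HLF activate output genes through the D-box, the repressor NFIL3 competes for that same element, and CIART (also called CHRONO) and BHLHE41 (also called DEC2) repress CLOCK and BMAL1. In liver the RNA of Dbp, Nr1d1 and Ciart is known to swing strongly over the day.

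Promoters are shown for the 4 members that passed the test of AD against Null liver (described further on). Their windows near the start differ in whether they hold the E-box letters CACGTG. The sequences are RefSeq's, read on GRCm38.p6 from a window that runs from 250 bases before a gene's start to 50 after it, and each is cut at the first annotated exon. They run 5′ to 3′ on the gene's own strand, and capitals mark the E-box CACGTG, which reads the same on both strands. All 9 members were found in the RefSeq windows.
Ciart, chr3:95882252-95882478, minus strand: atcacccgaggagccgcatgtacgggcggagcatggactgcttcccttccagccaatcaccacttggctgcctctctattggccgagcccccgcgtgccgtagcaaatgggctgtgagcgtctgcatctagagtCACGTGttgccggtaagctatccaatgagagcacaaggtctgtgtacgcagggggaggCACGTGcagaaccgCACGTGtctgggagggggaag
Tef, chr15:81811164-81811413, plus strand: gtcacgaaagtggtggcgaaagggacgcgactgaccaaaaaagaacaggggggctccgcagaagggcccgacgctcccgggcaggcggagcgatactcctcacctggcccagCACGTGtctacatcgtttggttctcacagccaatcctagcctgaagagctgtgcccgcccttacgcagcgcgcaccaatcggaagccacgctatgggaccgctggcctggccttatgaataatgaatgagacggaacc
Dbp, chr7:45704997-45705087, plus strand: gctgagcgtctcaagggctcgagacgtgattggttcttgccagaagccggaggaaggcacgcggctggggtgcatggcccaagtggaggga
Nr1d2, chr14:18239128-18239356, minus strand: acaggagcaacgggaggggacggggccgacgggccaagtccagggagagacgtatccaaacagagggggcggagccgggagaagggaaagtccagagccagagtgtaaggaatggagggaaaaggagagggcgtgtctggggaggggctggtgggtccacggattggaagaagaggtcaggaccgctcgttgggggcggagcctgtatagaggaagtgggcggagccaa

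The Ciart window holds CACGTG 3 times, at 116, 58 and 44 bases before the start. Tef has 2 annotated starts, and each window holds it once, at 127 and 138 bases before its start. Bhlhe41 holds it once, at 153 bases before the start, and the windows of Nr1d1, Nr1d2, Rora, Dbp, Hlf and Nfil3 do not hold these letters. Of all 32817 RefSeq windows of 300 bases, 7.149% hold CACGTG, and 29 (0.0884%) hold it 3 or more times. The RORE letters TAGGTCA (2.608% of windows, either strand) were found in Nfil3 alone among the members, with the first base 12 bases before the start. The other RORE spelling, TGGGTCA (3.983% of windows), and the D-box letters TTANGTAA (2.322% of windows) were found in no member's window. A match is only a run of letters in this window, and a window without one says nothing of a factor's binding elsewhere.

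Library totals, in units of 1e6 counts, were between 24.3 and 34.8 outside pancreas and between 19.9 and 24.8 in pancreas. Trp53, the altered gene, stood at 12.7 to 15.6 CPM (counts per 1e6 counts of the library after TMM scaling) in the 6 Null thymus libraries and at 20.4 to 27.0 in the 18 others. It was also lower in Null intestine (9.54 to 10.1 against 14.7 to 15.5), overlapped in liver, and in pancreas stood at 10.8 to 12.3 in Null and 7.36 to 11.2 in AD, so it checks the labels of thymus and intestine only. Cdkn1a, a p53 target that halts the cell cycle, was 3.55 ± 0.12 higher on the log2 scale in irradiated Het than in irradiated Null thymus (edgeR, adjusted p = 1.5e-13). Markers of the labelled organ were high in all libraries, but pancreatic acinar markers (8 genes, summed) reached 8.47e4 CPM in intestine AD-702 and 4.59e4 in intestine Null-923, against 576 to 9.75e3 in the other 4 intestine libraries. In liver they stood at 1601 CPM in AD-702 and at 40.4 to 95.6 in the other 5. Xist, which females express, stood at 440 CPM in liver of AD-702 and 491 in that of Null-859, and at 0.186 to 0.778 in liver of the other 4 mice, so it was high in 1 of 3 mice of each genotype.

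The members differed in level by organ. Between unirradiated AD and Null mice 4 members were called in liver and 2 in pancreas, and some were called between genotypes in irradiated thymus. Levels between genes are compared per length, as RPKM (CPM per kilobase of GENCODE M21 exon). In Null liver the order of the group means ran from Nfil3 at 39.7 RPKM through Rora (12.6), Nr1d2 (7.15), Tef (7.12), Hlf (4.07) and Nr1d1 (2.27) to Dbp (0.257), Ciart (0.241) and Bhlhe41 (0.0055). In AD liver it ran from Nr1d2 at 28.6 RPKM through Tef (24.4), Nfil3 (18.6), Nr1d1 (13.2), Rora (12.6), Dbp (7.63), Hlf (5.35) and Ciart (3.24) to Bhlhe41 (0.102). Dbp thus had its lowest and its highest group mean of all 13 groups in the same organ, 0.257 RPKM in Null liver and 7.63 in AD liver, and so did Ciart, 0.241 and 3.24. In unirradiated Null thymus Nr1d2 led at 4.38 RPKM, before Tef (2.6), Nfil3 (1.78), Dbp (1.25), Rora (0.966), Bhlhe41 (0.938), Ciart (0.708), Nr1d1 (0.550) and Hlf (0.053).

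**Figure D1:**
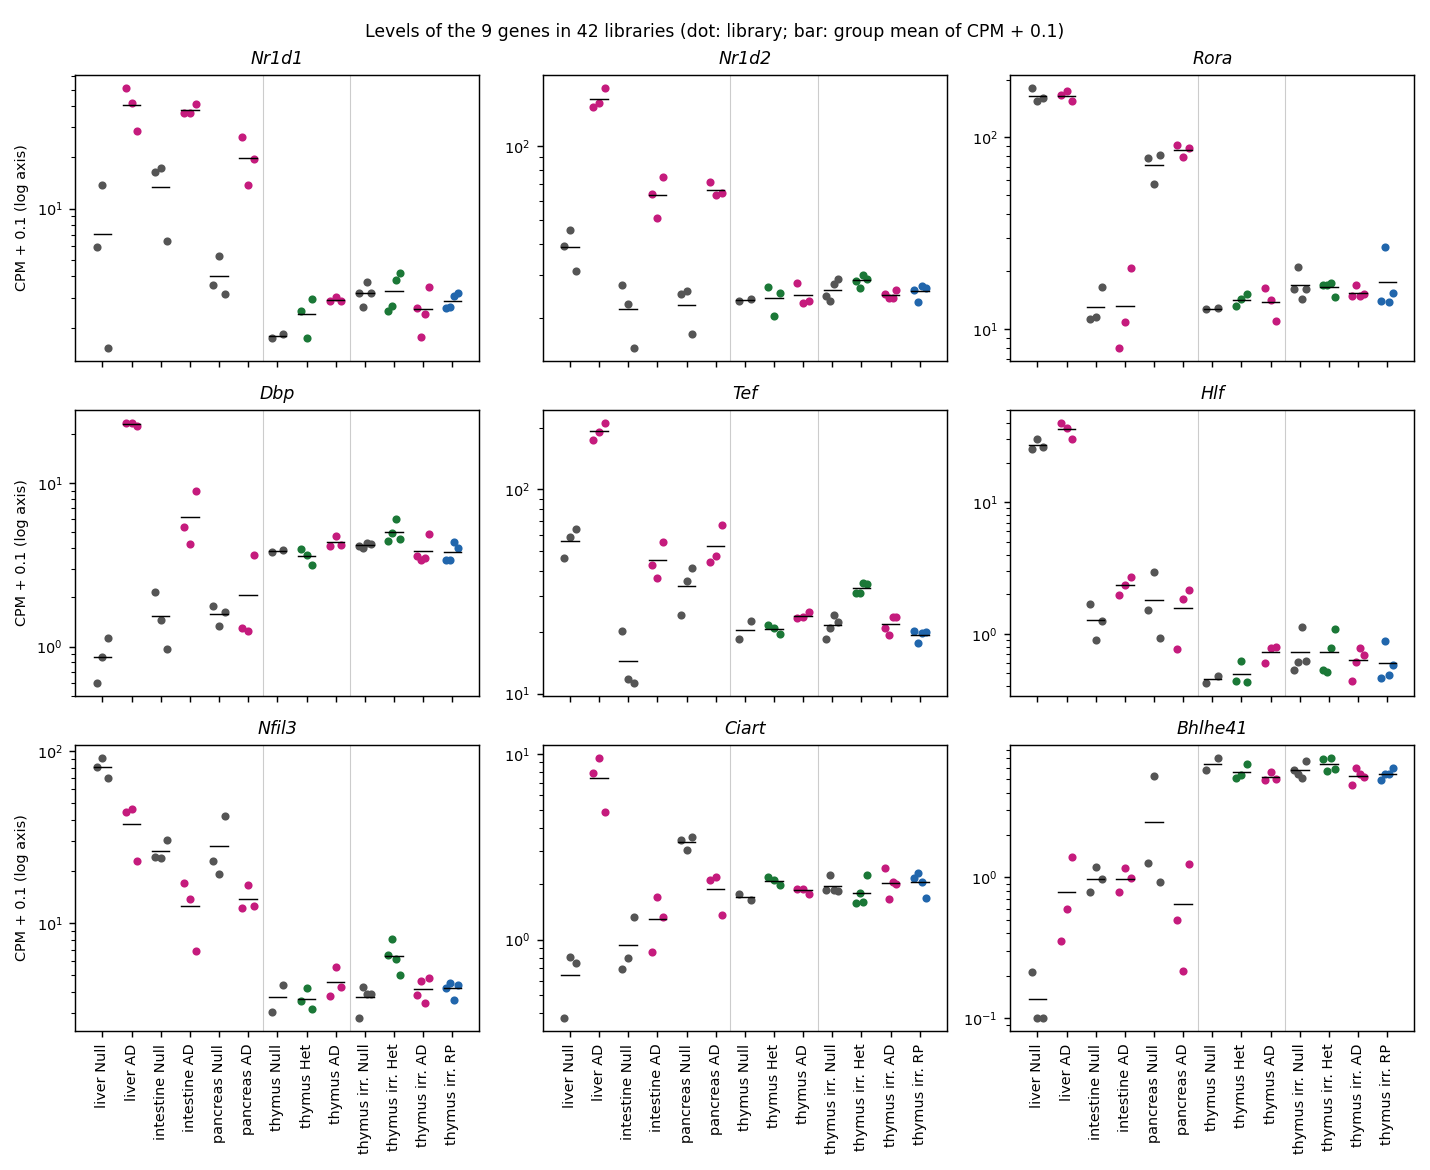
Each dot is a library, the vertical axis is CPM + 0.1 on a log scale, and the bar is the group mean; the columns are the 13 groups, by organ, genotype and irradiation (irr.). Dbp and Ciart are lowest in Null liver and highest in AD liver, while Rora stands at 154 to 182 CPM in all 6 liver libraries.

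The organ contrasts set the mean of AD and Null in one organ against that in another. Of the 24431 genes tested, 79.3% were called between liver and thymus, 75% between intestine and thymus, 70.4% between pancreas and thymus, 70.5% between liver and intestine, 65.3% between liver and pancreas and 64.3% between intestine and pancreas, so a called member is no exception. Liver exceeded thymus in 6 of 9 members (31.6% of all genes were called higher), by a log2 fold change between 1.64 for Nr1d2 and 6.0 for Hlf, and was lower in Bhlhe41 at -5.04 ± 0.52 (47.7% called lower). Pancreas stood above thymus in 7 members (31.5%) and below it in Dbp and Bhlhe41 (38.9%), intestine above it in 4 (35.3%) and below it in 2 (39.7%). A mean of AD and Null need not describe either genotype. Nr1d2 averaged 22.7 CPM in Null pancreas, 21.8 in Null intestine and 23.7 in Null thymus. In AD it averaged 66.3, 63.2 and 24.8 CPM. Ciart averaged 3.26 CPM in Null pancreas and 1.60 in Null thymus, against 1.78 and 1.74 in AD. Without intestine AD-702 and Null-923, 8 members were called for intestine against thymus in place of 6, with Rora and Dbp (-0.51 ± 0.23, adjusted p = 0.0459) added as lower in intestine, and with the mouse as a block 7, with Dbp added (-0.56, adjusted p = 0.0381). Over all libraries the genotypes went opposite ways in Dbp. AD intestine averaged 6.08 CPM against 4.26 in AD thymus, and Null intestine 1.43 against 3.75 in Null thymus. For Hlf the order was liver, then pancreas and intestine, which did not differ beyond their spread (-0.11 ± 0.25), then thymus. For Rora it was liver, then pancreas, 0.95 lower, then thymus and intestine, which were not told apart (intestine minus thymus -0.06 ± 0.18, adjusted p = 0.784). Without the 2 intestine libraries highest in acinar markers Rora was called lower in intestine than in thymus (-0.39 ± 0.12, adjusted p = 0.00652), as it was without AD-702 alone (-0.29, adjusted p = 0.0438). For Nr1d1, intestine and liver were not told apart (liver minus intestine -0.42 ± 0.34, adjusted p = 0.275), nor were liver and pancreas (0.81 ± 0.38, adjusted p = 0.0734), and thymus was below all 3. The first of these pairs passed without liver Null-859 (-0.88, adjusted p = 0.0132), and the second with the mouse as a block (0.73, adjusted p = 0.0448). Tef was highest in liver and next in pancreas, and thymus and intestine were not told apart (0.16 ± 0.17, adjusted p = 0.38). Nfil3 stood in the order liver, pancreas, intestine and thymus, with pancreas and intestine not told apart. Bhlhe41 alone was highest in thymus. In bulk tissue fewer cells of a type and less RNA per cell cannot be told apart. A few digestive enzymes take most of the reads in pancreas, so its CPM of other genes rests on the scaling more than elsewhere; with RLE scaling the same members were called. Dbp in intestine against pancreas and Ciart in pancreas against thymus lay near the threshold, and each call was lost without single libraries (adjusted p up to 0.131 and 0.127).

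In unirradiated liver, AD stood above Null for both REV-ERB genes and for 3 of the output genes, and Nfil3 stood the other way. The test called 4 of the 8 members tested higher in AD: Dbp, Ciart, Nr1d2 and Tef. It called 24 of 15755 genes higher (0.152%) and 42 in either direction (0.267%). Dbp, the D-box activator, carried the largest difference, 29.7-fold between group means. Bhlhe41 was too low to be tested. The same 4 members were called without AD-702, the liver library with acinar RNA (adjusted p from 0.000193 for Dbp to 0.00495 for Ciart).

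Among the receptors, Nr1d2 (GRCm38 14:18204054-18239127, minus strand) read 144, 148 and 172 CPM in liver of AD-700, AD-701 and AD-702. In liver of Null-859, Null-923 and Null-1087 it read 45.7, 31.1 and 39.2 CPM. Every AD library was thus more than 3 times every Null library, and the group means were 154.8 ± 15.2 and 38.7 ± 7.32 CPM (SD, n = 3 each). The log2 fold change was 2.05 ± 0.15 (SE, edgeR quasi-likelihood test with Benjamini-Hochberg adjustment, adjusted p = 0.000184). Nr1d1 (11:98767932-98775333, minus strand) read 51.3, 41.9 and 28.5 CPM in AD liver and 13.7, 1.42 and 5.83 in Null liver, in the same order of mice. The groups did not overlap, but the Null mice differed widely among themselves, with Null-923 lowest and Null-859 highest, and the difference of 2.58 ± 0.83 did not pass (adjusted p = 0.481). Rora (9:68653786-69388246, plus strand) read 167, 174 and 155 CPM in AD liver and 154, 160 and 182 in Null liver. Its groups overlapped and its log2 difference was 0.05 ± 0.10 (adjusted p = 0.933).

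Among the D-box activators, Dbp (7:45705088-45710203, plus strand) read 23.1, 23.3 and 22.1 CPM in AD liver. In Null liver it read 0.768, 1.04 and 0.5 CPM. The AD libraries lay close together, and the means of 22.8 ± 0.607 and 0.768 ± 0.268 CPM (SD, n = 3 each) stood far apart by comparison. The log2 fold change was 4.94 ± 0.26 (adjusted p = 1.64e-05). Tef (15:81802421-81826863, plus strand) read 174, 190 and 212 CPM in AD liver and 58.1, 63.9 and 45.9 in Null liver. Its groups stood apart as well, 3.43-fold between the means, with a log2 fold change of 1.83 ± 0.14 (adjusted p = 0.000303). Hlf (11:90336536-90390895, minus strand), the related activator, read 40.1, 36.9 and 30.2 CPM in AD liver and 30.3, 26.2 and 25.2 in Null liver. Its groups touched, with AD-702 just below Null-859, and the difference of 0.44 ± 0.14 did not pass (adjusted p = 0.355).

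Among the repressors, Ciart (3:95878503-95882251, minus strand) read 7.80, 9.43 and 4.78 CPM in AD liver. In Null liver it read 0.709, 0.647 and 0.278 CPM. The means were 13.5-fold apart, 7.34 ± 2.36 and 0.545 ± 0.233 CPM (SD, n = 3 each), and the log2 fold change was 3.79 ± 0.42 (adjusted p = 0.00672). The call rested on 6 libraries: without AD-700 the adjusted p was 0.0561 and without AD-701 it was 0.111. Nfil3 (13:52967209-52981073, minus strand), which represses at the D-box, read 44.3, 45.9 and 23 CPM in AD liver and 91.3, 69.3 and 80.8 in Null liver. It was the one member lower in every AD liver library than in every Null library, and its difference of -1.04 ± 0.26 did not pass (adjusted p = 0.281). It did pass with DESeq2 (-1.04, adjusted p = 0.00124) and with edgeR when genes of low counts were kept (-1.06, adjusted p = 1.81e-10). Those runs called 205 and 454 genes in all, in place of 42. Bhlhe41 (6:145858243-145865558, minus strand) gave 4 to 21 counts in AD liver and 0 to 2 in Null liver. Of all 8 tested members, 5 did not overlap in the direction of AD (5.55% of all genes) and 1 in the direction of Null (10.8%).

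Read against the other clock genes, the core loop (17 genes listed, 16 tested) had 0 called higher and 2 called lower in AD liver, with a median log2 difference of 0.02 (all genes, 0.0002) and a range from -1.77 to 2.35. Both called genes are known targets of REV-ERB repression, as is Nfil3, which did not pass in the main test. Any part of REV-ERB in their levels was not tested. Npas2, a partner of BMAL1 in place of CLOCK, read 2.58, 3.29 and 3.54 CPM in AD liver and 12.6, 11.6 and 9.0 in Null liver, a difference of -1.77 ± 0.25 (adjusted p = 0.0214). Arntl read 40.8, 38.0 and 30.8 CPM in AD liver and 77.3, 81.6 and 73.5 in Null liver, a difference of -1.03 ± 0.12 (adjusted p = 0.0104). Per3 had the largest difference of the list, 2.35 ± 0.42, without passing (adjusted p = 0.121). None of 6 genes of the REV-ERB corepressor complex was called in liver (median 0.04), none of 12 D-box target genes (median -0.17, range -0.40 to 1.71), none of 12 other rhythmic output genes (median 0.13) and none of 11 glucocorticoid-responsive genes (median 0.39).

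Genes that share ground with members were checked, because the strand setting of the counting is not given in the sources used here. Nr1d1 shares 263 exon bases with Thra, a thyroid hormone receptor gene on the opposite strand, and Dbp shares 539 with Sphk2, a sphingosine kinase gene. Thra read 14.3 to 18.5 CPM in AD liver and 16.9 to 18.1 in Null liver (-0.06 ± 0.16, adjusted p = 0.946). Sphk2 read 85.4, 69.5 and 87.3 CPM in AD liver and 65.1, 49.6 and 30.4 in Null liver, and did not pass (0.79 ± 0.28, adjusted p = 0.470). Its highest Null library was nonetheless below its lowest AD library, and Dbp in Null liver was at most 1.04 CPM. Tef shares 193 exon bases with Gm17597, Rora 82 with Gm15511 and Bhlhe41 1280 with Gm43909, so reads of these pairs cannot be told apart without strand.

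**Figure D2:**
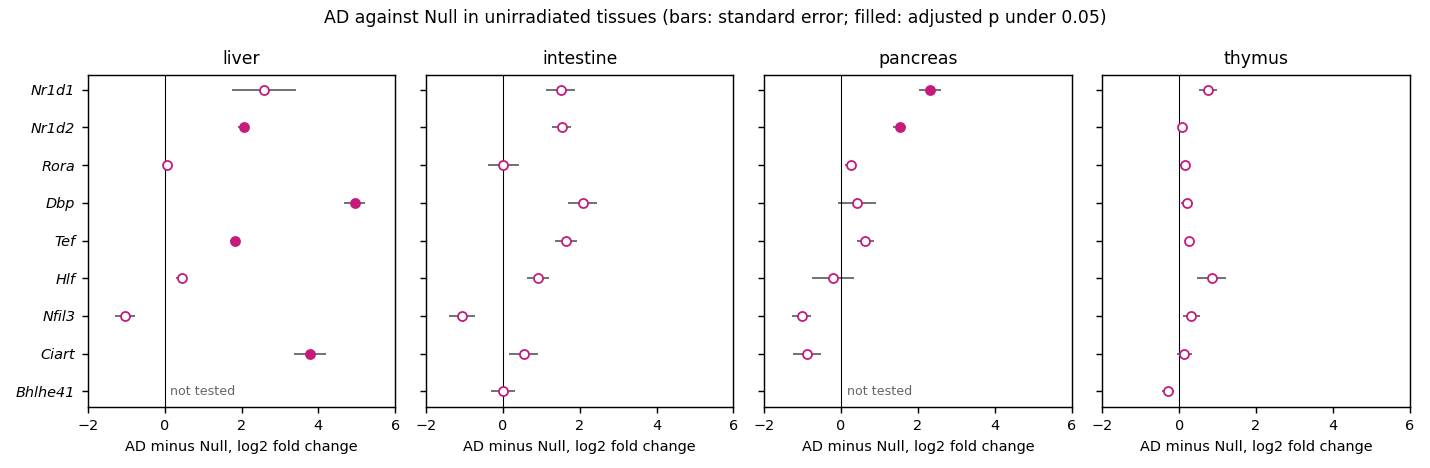
Points are log2 fold changes of AD against Null in each unirradiated organ, bars are standard errors, and filled points passed an adjusted p under 0.05. Filled points are Nr1d2, Dbp, Tef and Ciart in liver and Nr1d1 and Nr1d2 in pancreas; none is filled in intestine or thymus.

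In unirradiated pancreas the test called both REV-ERB genes higher in AD, and none of the D-box activators. These were 2 of 8 members tested, where 7 of 14604 genes were called higher (0.0479%) and 8 in either direction (0.0548%). Nr1d1 read 26.4, 13.6 and 19.6 CPM in pancreas of AD-700, AD-701 and AD-702, and 5.17, 3.06 and 3.49 in that of Null-859, Null-923 and Null-1087. Every AD library was above every Null library, and the log2 fold change was 2.31 ± 0.29 (adjusted p = 0.00408). Nr1d2 read 71.1, 63.2 and 64.6 CPM in AD and 25.8, 17.2 and 24.9 in Null pancreas, a difference of 1.52 ± 0.17 (adjusted p = 0.00136). Dbp, in contrast to liver, was low in both groups, at 1.20, 1.15 and 3.53 CPM in AD and 1.23, 1.53 and 1.68 in Null, or 9 to 31 counts (0.41 ± 0.51, adjusted p = 0.883).

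The other pancreas members did not pass. Tef read 43.9, 47.0 and 67.1 CPM in AD and 35.6, 41.3 and 24.1 in Null pancreas, groups that did not overlap (0.63 ± 0.22, adjusted p = 0.465). Nfil3 read 12.2, 16.6 and 12.5 CPM in AD and 19.2, 41.7 and 23 in Null, lower in every AD library (-1.02 ± 0.25, adjusted p = 0.274; with DESeq2 -1.02, adjusted p = 0.0354). Ciart, 13.5-fold higher in AD liver, was lower in every AD pancreas library, at 2.01, 2.07 and 1.25 CPM against 2.95, 3.47 and 3.36, or 11 to 26 counts (-0.89 ± 0.37, adjusted p = 0.56). Hlf and Rora overlapped between the groups (adjusted p = 0.955 and 0.699). Non-overlap was thus found for 3 members higher (6.85% of all genes) and 2 lower (6.12%). No core loop gene was called among 16 (median -0.07), and adipocyte markers (8 genes, summed) stood at 182 CPM in pancreas AD-701 against 46.3 to 76.3 in the other 5; their part in the result was not tested.

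In unirradiated intestine no member of 9 passed, although 3 of 20011 genes did (0.015%, all higher) and 1219 had an unadjusted p under 0.05. Of the 9, 5 members were higher in every AD library than in every Null library, Nr1d1, Nr1d2, Dbp, Tef and Hlf (5.78% of all genes), and Nfil3 was lower (6.32%). Dbp read 5.30, 4.15 and 8.80 CPM in AD and 1.36, 0.866 and 2.07 in Null intestine, means 4.25-fold apart (2.07 ± 0.38, adjusted p = 0.306). Nr1d2 read 63.9, 51 and 74.7 CPM in AD and 22.8, 15.1 and 27.4 in Null (1.54 ± 0.25, adjusted p = 0.344). Nr1d1 read 36.5, 36.4 and 40.8 CPM in AD and 17.2, 6.38 and 16.2 in Null (1.5 ± 0.39, adjusted p = 0.742). Again Null-923 was lowest. Tef read 42.6, 36.7 and 55.1 CPM in AD and 11.7, 11.2 and 20.2 in Null (1.64 ± 0.28, adjusted p = 0.403). Nfil3 read 17.1, 13.8 and 6.79 CPM in AD and 23.8, 30.2 and 24.2 in Null (-1.06 ± 0.34, adjusted p = 0.787).

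The intestine calls depended on the tool and on the libraries with acinar RNA. With DESeq2 the same contrast called 106 genes in place of 3. These included 5 members: Nr1d2 at 1.54 (adjusted p = 2.23e-09), Tef at 1.64 (5.90e-09), Dbp at 2.08 (3.01e-06), Nr1d1 at 1.51 (3.12e-05) and Nfil3 at -1.05 (0.0155). Without AD-702 and Null-923, the 2 intestine libraries highest in acinar markers, edgeR called 33 genes. Among them were Nr1d1 (1.12 ± 0.12, adjusted p = 0.00113) and Nr1d2 (1.19 ± 0.14, adjusted p = 0.00324). Dbp (1.46 ± 0.28, adjusted p = 0.087), Tef (1.31 ± 0.29, adjusted p = 0.52) and Nfil3 (-0.65 ± 0.13, adjusted p = 0.12) did not pass in that fit of 4 libraries. AD-702 held the highest Dbp, Tef, Nr1d2 and Rora and the lowest Nfil3 of the AD intestine libraries. The remaining members overlapped or were low: Ciart read 0.596 to 1.60 CPM and Bhlhe41 0.69 to 1.08 over all 6 libraries, and Rora read 7.87 to 20.7. None of 16 core loop genes was called (median -0.04).

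In unirradiated thymus no member passed in any of the 3 contrasts of genotypes, which share libraries: 15 of 22173 genes were called for AD against Null (0.0676%), 15 for Het against Null (0.0676%) and 0 for AD against Het (775 at an unadjusted p under 0.05, and by DESeq2 no member). After Hlf (0.84 ± 0.37, adjusted p = 0.615), Nr1d1 had the largest AD difference, at 2.77, 2.91 and 2.78 CPM in AD-700, AD-701 and AD-702 against 1.64 and 1.74 in Null-859 and Null-923 (0.75 ± 0.23, adjusted p = 0.373). Het spanned that gap, at 2.40, 1.63 and 2.86 CPM. Nr1d2, Dbp and Tef, which differed in liver, read 23.1 to 27.8, 4.04 to 4.67 and 23.3 to 25.0 CPM in AD thymus and 23.5 to 23.9, 3.67 to 3.82 and 18.4 to 22.6 in Null thymus. AD did not overlap Null in 4 members higher (10.4% of all genes) and 1 lower (11.7%) with only 2 Null libraries. Adipocyte markers stood at 238 to 305 CPM in AD and at 89.8 and 90.7 in Null thymus; their part in these values was not tested.

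A test of whether the difference between AD and Null changed with the organ called 3 of 9 members, against 42 of 24431 genes (0.172%). Dbp passed (edgeR, adjusted p = 6.61e-05), with differences of 4.94 in liver, 2.07 in intestine, 0.41 in pancreas and 0.20 in thymus. Ciart passed (adjusted p = 0.000311), with 3.79 in liver, 0.54 in intestine, -0.89 in pancreas and 0.13 in thymus. Nr1d2 passed (adjusted p = 0.00416), with 2.05, 1.54, 1.52 and 0.08 in the same order, so that thymus stood apart from the other 3 organs. That call needed both Null thymus libraries: without Null-859 the adjusted p was 0.0712 and without Null-923 it was 0.0564. Tef missed the threshold (adjusted p = 0.0834), and for Nr1d1 (0.759), Nfil3 (0.633), Hlf (0.802) and Rora (1) no difference among organs was shown. All 3 calls were also made without intestine AD-702 and Null-923 and with the mouse as a block.

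**Figure D3:**
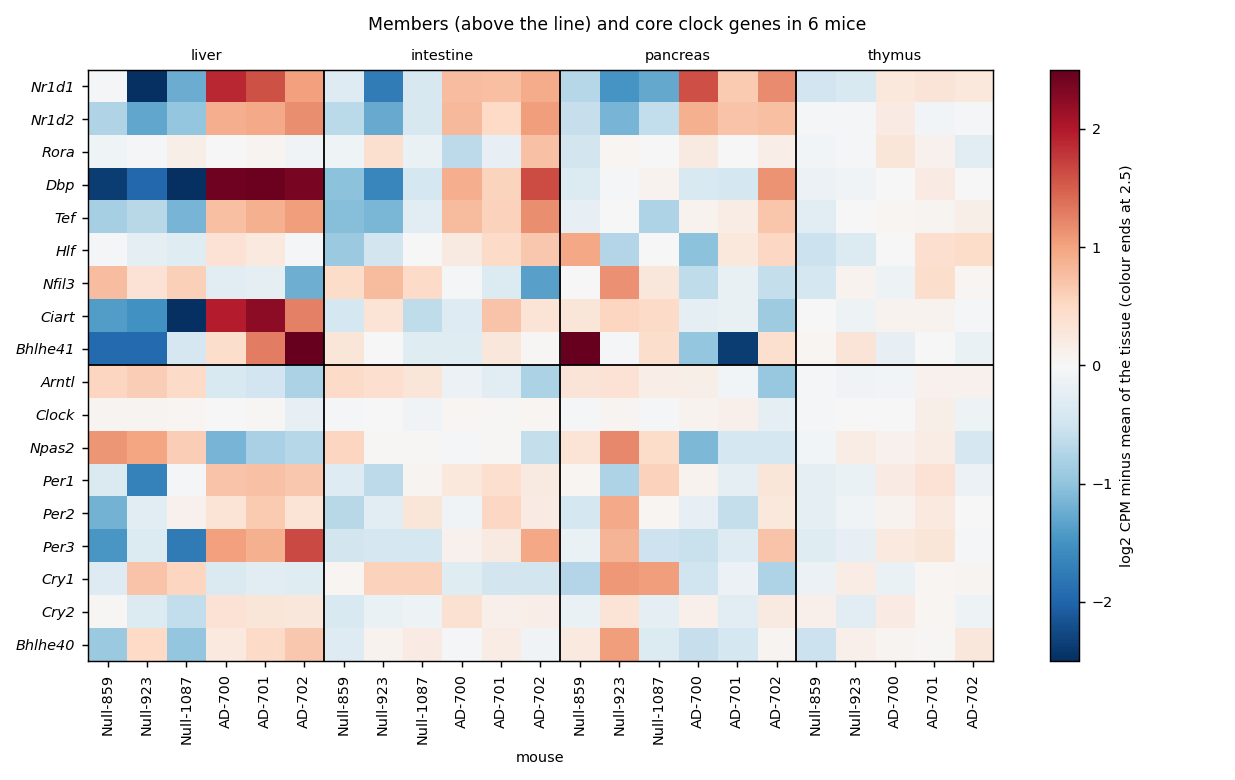
Colour is log2 CPM minus the mean of that organ for each mouse (columns, grouped by organ) and gene (rows; core clock genes below the line); colours end at 2.5. In liver, intestine and pancreas Nr1d2 is red in the 3 AD mice and blue in the 3 Null mice, and Nr1d1 likewise but for liver of Null-859, which is near white; Nr1d2 is near white in thymus.

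The same 6 mice can be followed across organs. Null-923 had the lowest Nr1d1 in liver (1.42 CPM), intestine (6.38) and pancreas (3.06), and the lowest Nr1d2 in those 3 organs as well (31.1, 15.1 and 17.2). Null-859 had the highest Nr1d1 of the Null mice in liver (13.7 CPM), intestine (17.2) and pancreas (5.17). Thymus did not show this order: Nr1d1 stood at 0.77 (log2 CPM) in Null-859 and at 0.85 in Null-923. In liver and pancreas Null-859 also lay among the AD mice in Cry1, a core repressor gene. In intestine it lay between the AD mice and the other Null mice. Cry1 read 24.2, 17.5 and 9.72 CPM in liver, intestine and pancreas of Null-859. The other Null mice read 43.8 and 49.5, 25.1 and 25.2, and 33.7 and 34.7 CPM, while the AD mice read 23.3 to 25.1, 12.3 to 13.7 and 9.56 to 14.7. AD-702 had the lowest Nfil3 and the lowest Arntl of the AD mice in liver and intestine (Arntl 30.8 and 32.4 CPM). By Xist, AD-702 and Null-859 are the mice that stand apart from the others of their genotype. With Xist as a covariate the same 4 members were called in liver and the same number in pancreas and intestine (2 and 0).

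In irradiated thymus the question was which members differ between genotypes after damage. Tef and Nfil3 were higher in irradiated Het thymus, the group with a working p53 copy, than in Null, AD and RP thymus. These were the 2 of 9 members called higher in Het than in Null, where 2173 of 22206 genes were (9.79%), so the count is to be read against a large share of all genes. Tef read 30.9, 30.9, 34.8 and 34.4 CPM in the 4 irradiated Het libraries. It read 18.5 to 24.3 in Null, 19.3 to 23.7 in AD and 17.5 to 20.1 in RP, so no library of the other 3 groups reached the lowest Het library. The means were 32.7 ± 2.15 CPM in Het and 21.5 ± 2.43 in Null (SD, n = 4 each), and the log2 fold change was 0.59 ± 0.09 (adjusted p = 9.83e-05).

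Nfil3 read 6.47, 7.99, 6.10 and 4.88 CPM in irradiated Het thymus and 2.71, 4.17, 3.80 and 3.76 in Null (0.80 ± 0.16, adjusted p = 0.00179). It read 3.74, 4.49, 3.33 and 4.72 CPM in AD and 4.12, 4.41, 3.5 and 4.28 in RP, again below every Het library (9.82% and 11.4% of all genes were). Macrophage markers (8 genes, summed) stood at 335, 274 and 310 CPM in Het-594, Het-595 and Het-603, and at 180 to 237 in Null, 181 to 218 in AD and 198 to 217 in RP; their part in the result was not tested. Het-631, the lowest Het library in Nfil3, stood apart from its group, with macrophage markers at 175 CPM and fibroblast markers (7 genes) at 705 against 321 to 471. Without it both calls against Null were made, Tef at 0.56 (adjusted p = 0.000157) and Nfil3 at 0.90 (adjusted p = 0.000279). Dbp was higher in every Het library than in every Null library, at 4.31 to 5.97 against 3.92 to 4.23 CPM, without passing (0.24 ± 0.14, adjusted p = 0.258). Groups did not overlap for these 3 members (10.4% of all genes). Nr1d1, Nr1d2, Rora, Hlf, Ciart and Bhlhe41 overlapped between Het and Null, with log2 differences from -0.14 to 0.13.

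The mutant alleles were set against Het and Null, contrasts that share those libraries. Against Het, AD was lower in Tef (-0.56 ± 0.09, adjusted p = 0.000199) and Nfil3 (-0.63 ± 0.16, adjusted p = 0.0136), 2 of 9 members where 8.27% of genes were called lower. The Nfil3 call was lost without Het-595 (adjusted p = 0.0537) or AD-726 (0.0524). Dbp did not pass (-0.37, adjusted p = 0.0916), but was called lower in AD without AD-727 (-0.51, adjusted p = 0.0238). RP was lower than Het in Tef (-0.76 ± 0.09, adjusted p = 6.21e-06), Nfil3 (-0.64 ± 0.16, adjusted p = 0.0087) and Dbp (-0.41 ± 0.14, adjusted p = 0.0488), 3 of 9 where 10.2% were. The Dbp call stood at the threshold and was lost with RLE scaling (adjusted p = 0.0503) and without any of 11 libraries (up to 0.152 without Het-603). Against Null no member passed for AD (6 genes called, 0.027%) or RP (7 genes, 0.0315%), nor between AD and RP (0 genes called, 1525 at an unadjusted p under 0.05, and 17 with DESeq2). Tef in AD minus RP was 0.20 ± 0.09 (adjusted p = 0.705).

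**Figure D4:**
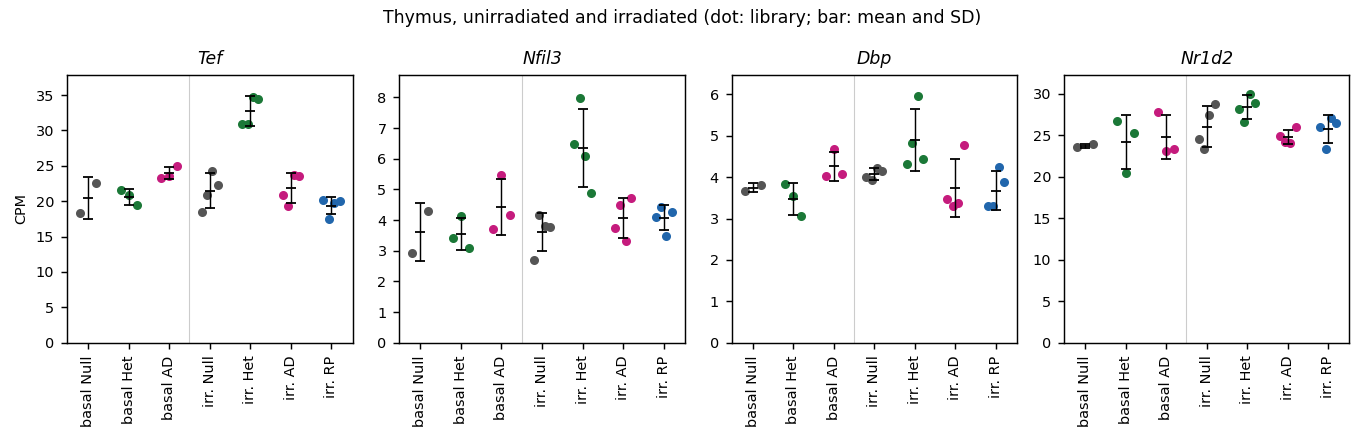
CPM of 4 members in each thymus library (dot) with group mean and SD (bar), unirradiated (basal) left of the line and irradiated (irr.) right of it. The 4 irradiated Het libraries are above all other libraries in Tef, at 30.9 to 34.8 CPM, while Nr1d2 stays between 20.5 and 29.99 CPM in all 24.

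Irradiated and unirradiated thymus came from different mice. In Het, Tef was 0.65 ± 0.09 higher after irradiation (adjusted p = 1.16e-05), from 21.6, 20.9 and 19.4 CPM in the 3 unirradiated libraries. Nfil3 rose by 0.82 ± 0.19 (adjusted p = 0.00254), from 3.43, 4.13 and 3.09 CPM, and Dbp by 0.47 ± 0.14 (adjusted p = 0.0243), from 3.83, 3.53 and 3.07 CPM. The Dbp call was lost without irradiated Het-603 (adjusted p = 0.0982) or unirradiated Het-703 (0.0644) or Het-855 (0.123). These 3 of 9 stand beside 8.74% of all genes called higher in Het. No member passed in Null (31 of 23605 genes called, 0.131%) or in AD (129, 0.546%). The largest ratios of irradiated to unirradiated group means in Null were 1.82 for Nr1d1 and 1.77 for Hlf, with 2 unirradiated libraries. In AD the same genes stood at 0.874 and 0.849. The rise of Tef in Het exceeded that in Null by 0.55 ± 0.13 (adjusted p = 0.0195; 2.37% of genes called higher) and that in AD by 0.77 ± 0.13 (adjusted p = 0.000292; 2.94%). The first call was lost without unirradiated Null-923 (adjusted p = 0.209) or Het-855 (0.0619). The rise of Nfil3 in Het exceeded that in AD by 0.94 ± 0.26 (adjusted p = 0.0365), a call lost without any of 7 libraries (adjusted p up to 0.155, without unirradiated AD-701), and against Null by 0.79 ± 0.28 (adjusted p = 0.129; without Het-631 0.90, adjusted p = 0.0439). The rise of Dbp in Het exceeded that in AD by 0.66 ± 0.20 without passing (adjusted p = 0.0714), and passed without irradiated AD-727 (0.79, adjusted p = 0.0178) or Het-631 (0.69, adjusted p = 0.0406). AD minus Null showed no called difference in response for any member (0 genes called, 972 at an unadjusted p under 0.05).

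Other clock genes were called in the same irradiated contrast of Het with Null. Of all 22206 genes tested there, 2173 (9.79%) were called higher and 2084 lower. Of 16 core loop genes tested 3 were higher, the E-box repressor Bhlhe40 (0.63 ± 0.09, adjusted p = 4.6e-05), Per1 (0.61 ± 0.13, adjusted p = 0.00282) and Arntl (0.34 ± 0.06, adjusted p = 0.000391), and Per3 was lower (-0.49 ± 0.17, adjusted p = 0.0456), with a list median of 0.05. Bhlhe40 was thus called and its relative Bhlhe41 was not. Of 10 D-box targets Abcb1a was higher (0.75 ± 0.16, adjusted p = 0.00273), and of 12 other rhythmic outputs Avpr1a (0.84 ± 0.28, adjusted p = 0.0452). A call of 1 gene in a list of 10 or 12 is near the share of all genes. Of 12 glucocorticoid-responsive genes 5 were higher and 1 lower, Cdkn1a and Per1 among the former; Fkbp5, a glucocorticoid receptor target, was the lower one (-0.48 ± 0.10, adjusted p = 0.00272). All 6 p53 targets checked were higher in Het.

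Finally the members were compared with each other and with 10403 genes that had a mean log2 CPM of at least 1 in each organ. Taken as deviations from the group mean over 42 libraries, which share mice, depth and organ makeup, the closest pair of members was Dbp and Tef (Pearson r = 0.68), followed by Nr1d1 and Nr1d2 (r = 0.63). Tef was also like Per3 (0.64), Nr1d1 like Per1 (0.55), and Dbp unlike Arntl (-0.61). Nr1d2 and Nfil3 ran opposite ways (-0.49). Among all candidates the gene nearest to Dbp was Tef, followed by Wdr91 (0.67). Nearest to Tef were Mfge8 (0.69) and Per3. Nearest to Nr1d1 were 4833418N02Rik (0.70), Zfp551, Asf1b and the immediate early gene Egr1 (each of the last at 0.67). Nearest to Nr1d2 was Zfp212 (0.68), with Nr1d1 and Junb (0.62) among its 5 nearest. The other members were nearest to genes outside the lists: Rora to Map2 (0.82), Hlf to Mylk (0.70), Nfil3 to Clptm1 (0.70), Ciart to 4930565N06Rik (0.72) and Bhlhe41 to Apobec3 (0.81).

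Across the 13 group means, where organ sets most of the spread, Tef and Nr1d2 were each other's neighbours (r = 0.92). Tef stood as near to Cry2 (0.92) and nearest to Fnip1 (0.93). Rora was nearest to Adi1 (0.995), Hlf to Gstz1 (0.99), Nfil3 to Dennd2a (0.98), Bhlhe41 to Gm45853 (0.97), Dbp to 1810013L24Rik (0.92), Nr1d1 to Otud7b (0.91) and Ciart to Gtf2ird2 (0.76). Ciart thus had the loosest nearest neighbour. Nfil3 and Bhlhe41 ran opposite ways over the groups (-0.91), and Nr1d1 and Nr1d2 ran together (0.83).

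**Figure D5:**
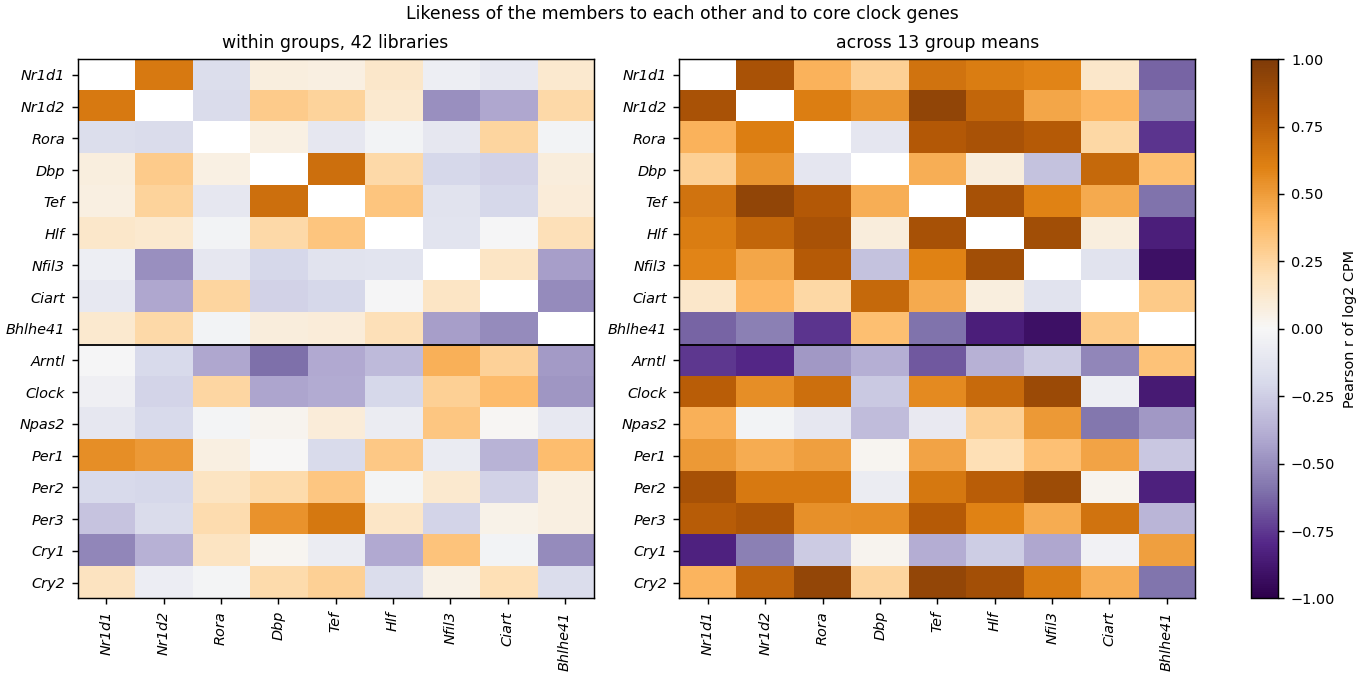
Pearson r of log2 CPM between members (columns) and members or core clock genes (rows, below the line), as deviations within groups over 42 libraries (left) and over 13 group means (right). Within groups the strongest colours among members are Dbp with Tef (0.68) and Nr1d1 with Nr1d2 (0.63).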

How the data were processed

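Per the labels' protocols, organs of 4-week-old mice were taken unirradiated or 4 h after irradiation and total RNA was sequenced. The deposited table holds raw read counts per gene, not normalized. STAR 2.6.0b, DESeq2 and GRCm38 are named in the submitters' processing notes; the counter, the annotation release and the strand setting are not given in the sources used here. Gene IDs were matched without version to GENCODE M21: 49326 of 49585 matched and 259 did not. Every column was used; 5 thymus columns name no organ and were assigned by animal number and genotype. Overlaps and lengths came from GENCODE M21, promoters and motifs from RefSeq.

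Counts were scaled by TMM, filtered with filterByExpr by group and tested with edgeR 4.0.16 (robust quasi-likelihood F test, R 4.3.3), with Benjamini-Hochberg adjustment over all genes tested; called means an adjusted p under 0.05. Errors of fold changes are |log2 fold change| divided by the root of F. Irradiated thymus (16 libraries), unirradiated thymus (8), each other organ (6), all thymus (24) and the 4 unirradiated organs without Het (23) were fitted separately. CPM used TMM over all 42 libraries, and log2 CPM a prior count of 2. The tests were checked on simulated counts. Within an organ replicates are mice, so p-values measure the spread between mice. The fit of the 4 unirradiated organs took libraries of the same mouse as independent. Its p-values, for the organ contrasts and the organ by genotype test, thus measure the spread between libraries. Only the alternative with the mouse as a block took the mouse into account.

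Named genes were the 9 members throughout, up to 4 genes of each other list with the largest called fold change, label checks, overlapping genes and the nearest genes by correlation; Per3 in liver, Cry1, Arntl and Sphk2 by mouse were chosen after their values were seen. An item that the rule names is not reported here. The members and lists were chosen with earlier results of these data known. No within-group pair looked like a repeat deposit of 1 library (49 pairs, smallest chi-square per degree of freedom 4.35). Libraries of the same mouse deviated together over 10403 genes (33 pairs, median r 0.21, 26 of them over 0.1), as animal numbers recur across organs. Pairs from other mice of the genotype, also taken across organs, had a median r of -0.13 (66 pairs, 8 of them over 0.1). Alternatives were RLE scaling, no filter, DESeq2 1.42.0, only the groups compared, Xist as a covariate, each library left out, the mouse as a block and, chosen after seeing the data, leaving out both intestine libraries highest in acinar markers.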

Additional observations from a re-analysis of the deposited data

Results flagged for a closer look

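In 3 of 36 tests of a member in a group of 4 libraries, where chance gives about 1 in 20, 1 irradiated thymus library stood far from the others of its group in log2 CPM. Ciart stood at 1.13 in Null-604 and at 0.83 to 0.86 in the other Null libraries. That library also held NK and innate lymphoid markers (10 genes, summed) at 497 CPM against 109 to 118 in the other 3 Null libraries; their part in the value was not tested. Dbp stood at 2.27 in AD-727 and at 1.75 to 1.83 in the other AD libraries, and hepatocyte markers (8 genes, summed) at 180 CPM in AD-727 against a group median of 7.66; their part was not tested. Without that library Dbp was called lower in irradiated AD than in Het thymus (-0.51, adjusted p = 0.0238). Tef stood at 4.14 in RP-653 and at 4.31 to 4.33 in the other RP libraries, with hepatocyte markers at 45.7 CPM; their part was not tested.

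The irradiation response differed between genotypes for Tef, by 0.55 (log2) between Het and Null and by 0.77 between Het and AD, and for Nfil3, by 0.94 between Het and AD. The difference between AD and Null changed with the organ for Nr1d2 (adjusted p = 0.00416), Dbp (6.61e-05) and Ciart (0.000311).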

How the results depend on the processing

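No called difference of a member changed direction under any alternative run. Counts of members called moved for unirradiated intestine, AD against Null, from 0 to 5 with DESeq2 and 2 without both libraries high in acinar markers, and ran from 0 to 1 with a library left out (Nr1d1 without Null-923, Tef without Null-1087). For pancreas, AD against Null, the 2 calls became 5 without a filter on low counts (Nfil3, Tef and the otherwise untested Bhlhe41 added). For Het, irradiated against unirradiated, 3 became 5 with Xist as a covariate. For the irradiation response of Het against Null, 1 became 0 when only the groups compared were fitted, and ran from 0 to 2 with a library left out. With a library left out, counts ran from 1 to 3 for the response of Het against AD (main 2) and for irradiated AD against Het (main 2), from 3 to 4 for liver and from 2 to 4 for the organ by genotype test, which DESeq2 was not run on.

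Over all genes, liver calls went from 42 to 205 with DESeq2, 454 without a filter, 95 with Xist and 3 to 87 with a library left out (3 without AD-701). Pancreas went from 8 to 49, 209, 62 and 4 to 26, and intestine from 3 to 106, 50, 3 and 3 to 8. With the replicate block for mouse, 3 members were still called for organ by genotype, and the calls that changed were Dbp for intestine against thymus (-0.56, adjusted p = 0.0381) and Nr1d1 for liver against pancreas (0.73, adjusted p = 0.0448). Depth limits Bhlhe41 in liver, where 2 Null libraries had 0 counts, which allows up to 0.177 and 0.194 CPM (3 counts each, counting error only).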
